A study of Mus musculus with 8 samples.

Results

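The Hippo pathway kinases and effectors described here are 10 mouse genes, Stk3, Stk4, Sav1, Mob1b, Lats1, Lats2, Nf2, Amotl2, Yap1 and Wwtr1. They were chosen by name, as core parts of the pathway, from the 23219 genes of the deposited table. Kidney RNA was sequenced at 2 months of age in 2 groups that shared the floxed Mta2 alleles. The 4 control kidneys were Mta2flx/flx and the 4 mutant kidneys were Six2Cre Mta2flx/flx. Mta2 encodes a subunit of NuRD, a chromatin complex that remodels nucleosomes and removes histone acetyl groups. Six2Cre acts in the progenitors of the nephron epithelium, so stroma, vessels and collecting duct, which arise from other progenitors, are not its direct target. Fresh kidney tissue was used, with no cell sorting named in the labels, and in such bulk samples fewer cells of a type cannot be told apart from less RNA per cell. Whether each kidney was taken from a separate animal is not stated in the labels. The p-values therefore describe the spread among 8 libraries, which may be technical.

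The Hippo pathway restrains growth through a kinase relay. Stk4 and Stk3 (MST1 and MST2), held by the scaffold Sav1, phosphorylate Lats1 and Lats2 and their cofactors of the Mob1 family, and Nf2 (merlin) promotes this step at the membrane. Active LATS kinases phosphorylate the coactivators Yap1 and Wwtr1 (TAZ), which keeps them out of the nucleus and marks them for breakdown, while unphosphorylated YAP and TAZ bind TEAD factors and switch on targets that include Amotl2 and Lats2. Much of the pathway is set by phosphorylation and by location in the cell, which RNA does not report. In mice, Yap1 is needed in nephron progenitors for nephron formation, and its loss from podocytes, the filtering cells of the glomerulus, leads to focal segmental glomerulosclerosis, the disease named in the series title.

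None of the 10 genes passed the test between mutant and control kidneys, and the groups overlapped for all 10, where 4.29% of tested genes had groups that did not overlap. The lowest adjusted p was 0.828, for Mob1b, from limma on all 13060 tested genes. Across all tested genes 0.107% were called, so a call among 10 genes would have been rare. No member had an unadjusted p under 0.05, against 6.33% of tested genes. Under the second scaling described below the corresponding background shares were 0.461% of tested genes called, 9.25% under an unadjusted p of 0.05 and 5.08% without overlap of the groups, and each count was again 0 of 10. Under the authors' scaling the range within either group exceeded the difference of the group means for all 10 genes. Lats2 lay at nearly one level in all 8 libraries once library scale was removed, and Wwtr1 lay lower relative to Yap1 in all 4 mutants than in any control. That difference did not pass correction over 4 pairs (adjusted exact permutation p = 0.114). With 4 libraries per group, no pair could pass it alone.

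Values are given as BPM, the sequenced bases assigned to a gene per megabase assigned to all genes. The libraries held 164 to 468 megabases. Small RNA genes, which include small nucleolar RNAs and the RNase P and RNase MRP RNAs, took 15.9% to 34.3% of the bases in controls and 25.9% to 52.6% in mutants, and the share was highest in mutants 3387 (48.0%) and 3487 (52.6%) and then in control 3486 (34.3%). All libraries were scaled to one total, small RNA genes included, and the middle of the log2 fold changes (mutant minus control) over tested genes lay at -0.23. What part the small RNA share has in the values below was not tested beyond the second scaling and a covariate fit. A second scaling divided each library by a factor, 0.590 to 1.44, that aligns the genes that are not small RNAs, and is called median scaling. It placed the median gene at 0.01 and called 60 genes. Mta2 measured 49.0, 35.1, 67.9 and 52.4 BPM in controls 3401, 3486, 3586 and 3587, and 52.6, 33.1, 14.3 and 48.9 in mutants 3382, 3387, 3487 and 3489. Under the authors' scaling only mutants 3387 and 3487 lay below all controls. After median scaling mutants 3382, 3487 and 3489 lay below all controls, and mutant 3387 did not. The log2 fold change of Mta2 was -0.56 under the authors' scaling and -0.31 under median scaling, and was not called under either. The values cover the whole gene, not the deleted part, so they check the labels only weakly. Markers of proximal tubule, of distal nephron together with collecting duct, and of podocytes had coverage. Of these, 8 of 8, 8 of 8 and 12 of 12 passed the filter on low values.

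The upstream kinases Stk3 and Stk4 had different patterns over the libraries. Stk3 (chromosome 15, 34875496 to 35178921, mm10, minus strand) measured 9.53, 19.5, 14.4 and 13.3 BPM in controls 3401, 3486, 3586 and 3587, and 7.88, 7.88, 9.11 and 14.99 in mutants 3382, 3387, 3487 and 3489. Mutants 3382, 3387 and 3487 lay below every control, and mutant 3489 lay among them. The log2 fold change of Stk3 was -0.47 (SE 0.41, 95% interval -1.34 to 0.39, adjusted p = 0.873). Stk4 (chromosome 2, 164070322 to 164155524, plus strand) measured 14.7, 8.62, 35.0 and 24.8 BPM in the controls and 35.9, 11.8, 10.2 and 28.8 in mutants. Both groups spanned about the same range, with control 3486 lowest and mutant 3382 highest. The fitted log2 fold change for Stk4 came to 0.04 (SE 0.48, interval -0.97 to 1.06, adjusted p = 0.990). With the small RNA share of each library as a covariate, Stk4 came nearest to the threshold of the 10 genes, at a log2 fold change of 0.91 (adjusted p = 0.0826). The median tested gene lay at 0.25 in that fit.

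Sav1, the scaffold of the MST kinases, showed no separation, and the LATS cofactor Mob1b had the lowest p of the 10. Sav1 (chromosome 12, 69965012 to 69987002, minus strand) measured 17.0, 11.5, 12.6 and 19.7 BPM in the controls and 12.02, 8.23, 9.35 and 20.3 in mutants. The highest value belonged to mutant 3489 and the lowest to mutant 3387. Its log2 fold change was -0.31 (SE 0.41, interval -1.18 to 0.55, adjusted p = 0.908). Mob1b (chromosome 5, 88720855 to 88764220, plus strand) measured 33.6, 21.3, 47.1 and 36.9 BPM in the controls and 17.0, 16.7, 14.3 and 39.2 in mutants. Mutants 3382, 3387 and 3487 lay below all controls, and mutant 3489 lay above 3 of them. Control and mutant means were 34.7 ± 10.6 and 21.8 ± 11.6 (SD, n = 4 each), and the log2 fold change was -0.71 (SE 0.40, limma adjusted p = 0.828, interval -1.54 to 0.12). Under median scaling the Mob1b log2 fold change was -0.46 (adjusted p = 0.667). The treatment of reads with several matches is not given in the sources used here, and Mob1b has a close paralog, Mob1a, so the division of signal between them is uncertain.

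The LATS kinases differed in how steady they were. Lats1 (chromosome 10, 7681214 to 7716460, plus strand) measured 54.5, 19.01, 72.0 and 52.7 BPM in the controls and 47.4, 25.2, 21.8 and 63.9 in mutants. Control 3486 was the lowest of the 8 libraries, so the mutants lay within the control range. Lats1 had a fitted log2 fold change of -0.30 (SE 0.43, interval -1.21 to 0.60, adjusted p = 0.916). Lats2 (chromosome 14, 57689662 to 57758388, minus strand) measured 19.4, 19.3, 25.4 and 21.3 BPM in the controls and 24.2, 12.4, 11.03 and 24.7 in mutants. Mutants 3387 and 3487, the libraries with the most small RNA, lay below the controls, and the other two mutants lay among them. Control and mutant means were 21.4 ± 2.83 and 18.1 ± 7.35 (SD, n = 4 each), and the log2 fold change was -0.31 (SE 0.39, limma adjusted p = 0.906, interval -1.12 to 0.51).

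Median scaling brought Lats2 to nearly one level. It measured 18.6, 23.1, 17.6 and 18.5 scaled BPM over the control libraries and 18.96, 17.1, 18.7 and 19.5 over the mutant libraries. The narrowing lay mainly in the mutants, where the SD went from 7.35 to 1.01 BPM. In the controls it went from 2.83 to 2.47, with control 3486 moving from lowest to highest. All 4 mutants lay within the control range apart from mutant 3387, slightly below it. Its log2 fold change was then -0.06 (SE 0.23, limma adjusted p = 0.977, interval -0.55 to 0.43). The within-group SD of Lats2 on the log2 scale was 0.13, lower than for all but 0.691% of tested genes under this scaling. For Wwtr1 it was 0.16, at the 2.19 percentile, whereas Stk3 and Amotl2 stood at the 66.6 and 65.4 percentiles. The profile of Lats2 under the authors' scaling was closest to those of Clk1, Cyhr1, Rtel1, Dhx40 and Hnrnpk, among 8674 genes of at least moderate level. Their root mean square difference from Lats2 over the 8 libraries was 0.07 to 0.10 on the log2 scale after each gene's mean was removed, against a median of 0.39 over the 8674 genes. The named genes were picked for the smallest difference, so their place below that median is fixed by the choice. Clk1, a kinase of splicing factors, was nearest under both scalings. Its values were 33.3, 32.8, 47.5 and 39.3 BPM in the controls and 46.3, 23.5, 21.7 and 41.9 in mutants, with the same order of high and low mutants as the library scale.

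**Figure D1:**
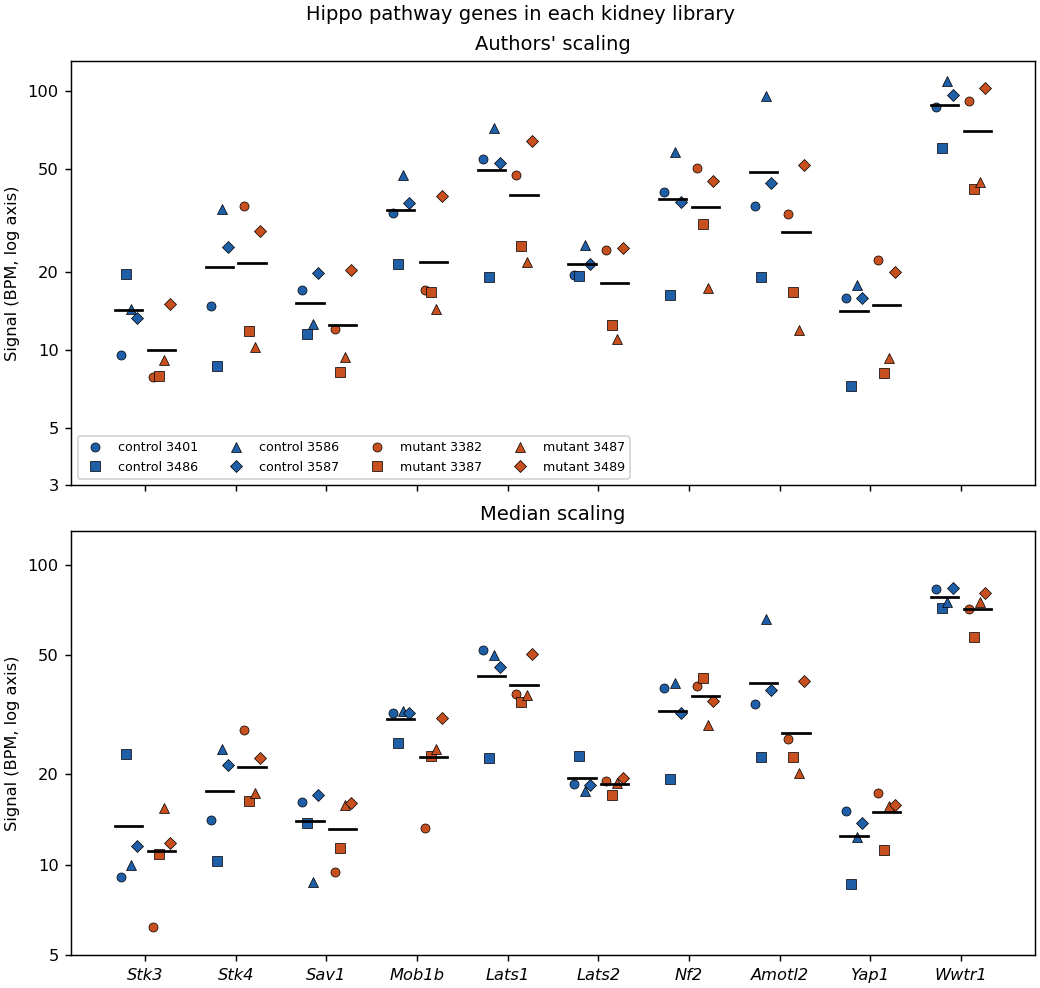
Signal of the 10 genes in each library, in BPM on a log axis, under the authors' scaling (top) and after median scaling (bottom), with controls in blue, mutants in orange and group means as black lines (n = 4 each). Lats2 spans 11.03 to 25.4 BPM in the top panel and 17.1 to 23.1 in the bottom panel.

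At the membrane, Nf2 did not separate the groups, and Amotl2, a junctional partner of YAP and itself a YAP target, had the widest spread of the 10 under the authors' scaling. Nf2 (chromosome 11, 4765845 to 4849536, minus strand) measured 40.6, 16.2, 58.2 and 37.1 BPM in the controls and 50.2, 30.5, 17.3 and 44.6 in mutants. Every mutant lay inside the control range. The log2 fold change of Nf2 was -0.06 (SE 0.42, interval -0.95 to 0.82, adjusted p = 0.985) and 0.20 under median scaling, so its sign depends on the scaling. Amotl2 (chromosome 9, 102716672 to 102733418, plus strand) measured 35.8, 19.05, 95.5 and 44.1 BPM in the controls and 33.5, 16.6, 11.9 and 51.8 in mutants. Control 3586 was by far the highest library, and mutants 3387 and 3487 lay below all controls. Control and mutant means were 48.6 ± 33.0 and 28.5 ± 18.1 (SD, n = 4 each), and the log2 fold change was -0.74 (SE 0.49, limma adjusted p = 0.857, interval -1.75 to 0.28). The within-group SD of Amotl2 exceeded that of 90.9% of tested genes. In the authors' deposited table the ratio of mutant to control was 0.586 for Amotl2 and 0.627 for Mob1b, with unadjusted p of 0.325 and 0.151, and the other 8 genes had p from 0.166 to 0.919.

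The effectors Yap1 and Wwtr1 are described with their promoters, because the ratio of this paralog pair did not overlap between the genotypes. That difference did not pass correction over 4 pairs, which no pair could pass alone with so few libraries. TEAD factors bind the letters GGAATG. Both strands of the 250 bases before each RefSeq start (GRCm38.p6, the assembly also called mm10) were searched for this one motif, which is in capitals below.
Yap1, chr9:8004597-8004846, minus strand: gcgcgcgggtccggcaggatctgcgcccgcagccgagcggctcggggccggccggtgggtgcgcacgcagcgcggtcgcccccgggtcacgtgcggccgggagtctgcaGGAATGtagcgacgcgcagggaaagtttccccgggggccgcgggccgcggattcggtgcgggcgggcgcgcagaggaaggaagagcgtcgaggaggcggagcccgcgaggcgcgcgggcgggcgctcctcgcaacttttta
Wwtr1, chr3:57575911-57576160, minus strand: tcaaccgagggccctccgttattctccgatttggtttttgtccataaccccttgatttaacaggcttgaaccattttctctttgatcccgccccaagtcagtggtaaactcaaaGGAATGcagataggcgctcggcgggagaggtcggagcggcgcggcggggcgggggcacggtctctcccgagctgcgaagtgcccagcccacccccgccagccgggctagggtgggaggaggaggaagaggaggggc
The motif begins 141 bases before the Yap1 start and 136 bases before the Wwtr1 start, on the strand of the gene in both. It was also found before the starts of Sav1 and Amotl2, which makes 4 of the 9 genes with a window, Stk3 being the gene without one. The Amotl2 window (chr9:102717554-102717803) lies inside the GENCODE bounds of that gene and overlaps an annotated exon. Of 27025 genes with a window, 14.4% held the motif. A match is a description of these letters and not evidence of binding.

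Yap1 itself was at 15.8, 7.23, 17.8 and 15.8 BPM in controls 3401, 3486, 3586 and 3587, and at 22.2, 8.13, 9.27 and 19.99 in mutants 3382, 3387, 3487 and 3489. Mutants 3382 and 3489 lay above all controls, and mutants 3387 and 3487 lay near the lowest control, 3486. The log2 fold change of Yap1 was 0.02 (SE 0.44, interval -0.91 to 0.94, adjusted p = 0.997). Wwtr1 was at 86.8, 59.9, 108.6 and 96.3 BPM in the controls and at 90.8, 41.8, 44.5 and 102.0 in the mutants. Mutants 3387 and 3487 lay below all controls, and the other two lay among them. The log2 fold change of Wwtr1 was -0.41 (SE 0.36, interval -1.16 to 0.34, adjusted p = 0.876).

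**Figure D2:**
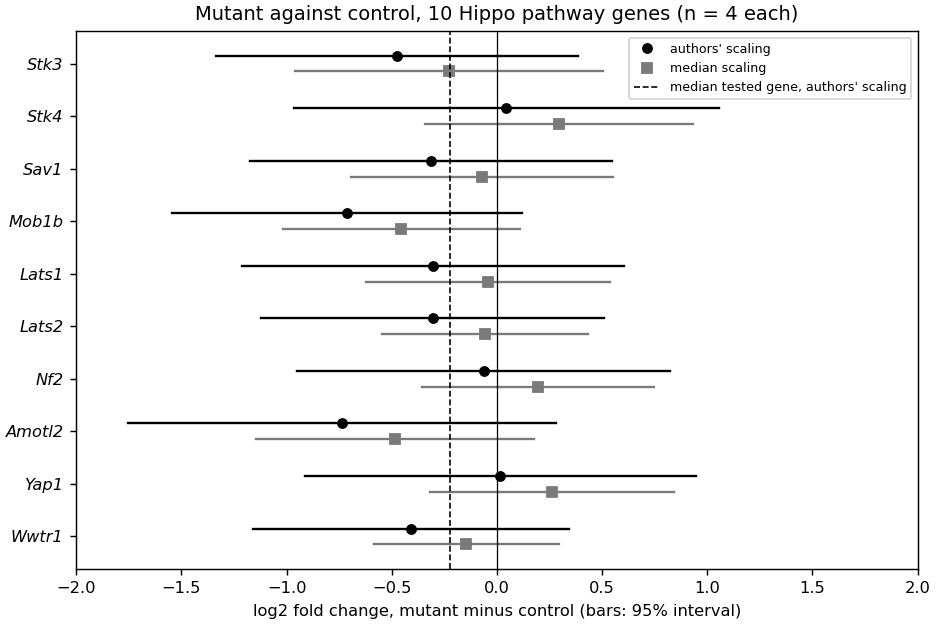
Log2 fold change of each gene (mutant minus control, n = 4 each) with its 95% interval from limma, under the authors' scaling (black circles) and median scaling (grey squares). The dashed line marks the median tested gene at -0.23, and every interval crosses 0.

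Levels of different genes were compared per kilobase of annotated exon. Wwtr1 was the highest of the 10 in 8 of 8 libraries, with control and mutant means of 18.4 ± 4.33 and 14.6 ± 6.51 BPM per kilobase (SD, n = 4 each). Below it, by control mean, came Amotl2 (7.73 ± 5.24), Lats1 (6.79 ± 3.04), Nf2 (5.57 ± 2.52) and Stk4 (3.55 ± 1.98). The lower levels were those of Lats2 (3.06 ± 0.405), Sav1 (2.89 ± 0.729), Stk3 (2.32 ± 0.676), Mob1b (2.31 ± 0.708) and Yap1 (1.53 ± 0.509). Control ranges of all neighbours in this order overlapped, and within libraries only Wwtr1 over Amotl2 and Nf2 over Stk4 held in 8 of 8. Yap1 was the lowest of the 10 in 5 libraries. Exon lengths are those of GENCODE and may differ from the annotation the authors used.

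The ratio of a pair of genes within a library is the same under any scaling of that library, up to the pseudocount of 1 BPM. Ratios were compared for 4 paralog pairs by exact 2-sided permutation of the libraries, where the smallest possible p is 0.0286. The log2 ratio of Wwtr1 to Yap1 was 2.39, 2.89, 2.54 and 2.53 in controls 3401, 3486, 3586 and 3587, and 1.99, 2.23, 2.15 and 2.30 in mutants 3382, 3387, 3487 and 3489. All 4 mutants lay below all 4 controls. How often ratios of other gene pairs in the whole table separate in this way was not measured, so this separation has no background share beside it. Control and mutant means were 2.59 ± 0.21 and 2.16 ± 0.13 (SD, n = 4 each), a difference of -0.42 (exact permutation p = 0.0286, the smallest possible, and 0.114 adjusted over the 4 pairs). The ratio did not pass the correction, but a pair that alone reaches the smallest possible p cannot pass it. The correction therefore could not decide on this pair. Per kilobase, Wwtr1 stood 7.93 to 16.1 times as high as Yap1 over the 8 libraries. Without any single library the difference ran from -0.49 to -0.32, and it was -0.45 without mutants 3387 and 3487.

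The log2 ratio of Mob1b to Mob1a was 1.40, 0.62, 1.27 and 1.44 over the control libraries and -0.02, 0.45, 0.51 and 1.04 over the mutant libraries. Mutants 3382, 3387 and 3487 lay below all controls. The difference of means was -0.68 (exact permutation p = 0.0571, 0.114 adjusted over the pairs). The log2 fold change of Mob1a alone was -0.03 (adjusted p = 0.992). The log2 ratio of Stk3 to Stk4 differed by -0.52 between the groups (mean -0.39 ± 1.02 in controls and -0.91 ± 0.82 in mutants, SD, n = 4 each, exact permutation p = 0.514), and by -0.02 without control 3486.

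The log2 ratio of Lats2 to Lats1 was -1.44, 0.02, -1.47 and -1.27 over the control libraries and -0.94, -0.97, -0.92 and -1.34 over the mutant libraries. Control 3486 stood apart, at equal signal of both kinases. Both groups averaged -1.04, with an SD of 0.71 in the controls and 0.20 in the mutants (exact permutation p = 1). Without control 3486 the difference was 0.35 in favour of Lats2 in the mutants (adjusted exact permutation p = 0.114), and without mutant 3489 it was 0.10.

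**Figure D3:**
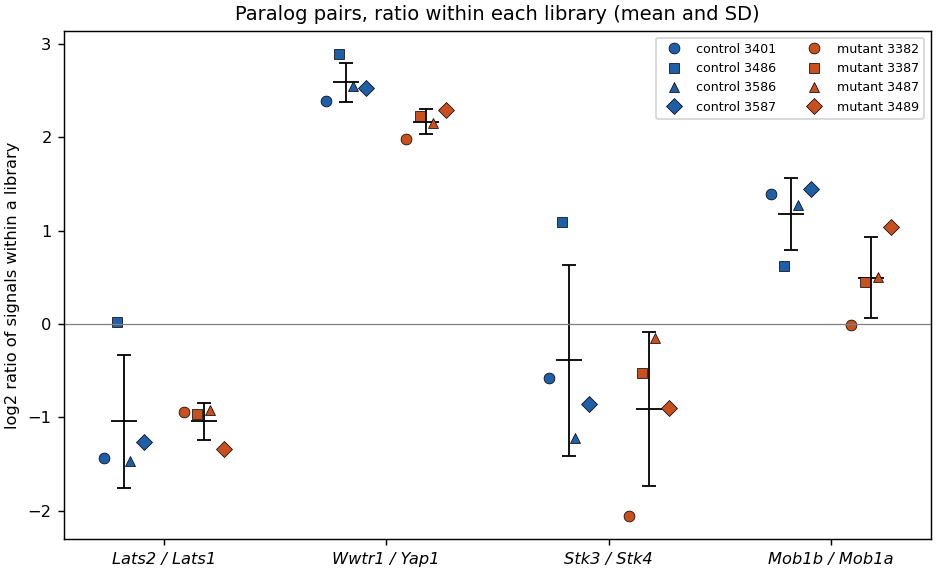
Log2 ratio of signals within each library for 4 paralog pairs, controls in blue and mutants in orange, with mean and SD in black (n = 4 each). The Wwtr1 to Yap1 ratio lies between 2.39 and 2.89 in the controls and between 1.99 and 2.30 in the mutants, while the Lats2 to Lats1 ratio of control 3486 lies apart at 0.02.

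Under the authors' scaling most of the 10 genes were low in the same libraries, apart from Stk3, which was highest in control 3486, and from Mob1b and Stk3, which were also low in mutant 3382. Mutants 3387 and 3487 were among the 3 lowest libraries for 10 of 10 genes, and control 3486 for 8 of 10, which are the libraries of highest small RNA share. For 5 of the 10 genes the pair of lowest libraries were mutants 3387 and 3487, as for 33.1% of tested genes. The median deviation of the 10 genes from their own means was -0.77 in mutant 3487 and 0.65 in control 3586 on the log2 scale, where all tested genes had medians of -0.68 and 0.48. After median scaling the same medians of the 10 genes were -0.05 and 0.13, and the other libraries ran from -0.25 (control 3486) and -0.19 (mutant 3387) to 0.23 (mutant 3489), while the medians of all tested genes ran from 0.0017 to 0.0514. Control 3486 then remained the lowest library for 4 genes (Stk4, Lats1, Nf2 and Yap1) and the highest for 2 (Stk3 and Lats2). Mutant 3382 was lowest for Stk3 and Mob1b.

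**Figure D4:**
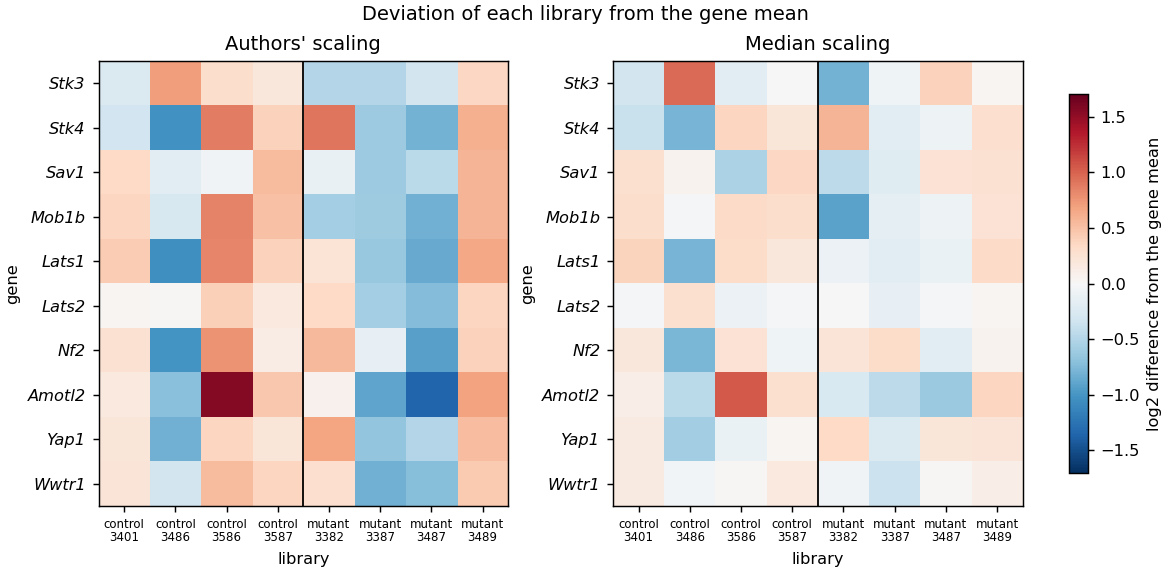
Difference of each library from the gene's mean over the 8 libraries, on the log2 scale, for the 10 genes under the authors' scaling (left) and median scaling (right). Mutants 3387 and 3487 lie below the gene's mean for all 10 genes on the left, mutant 3387 lies below it for all but Nf2 on the right, and control 3486 keeps low values of Lats1, Stk4, Nf2 and Yap1 in both.

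Other genes of the pathway were taken from a list of 66, of which 61 passed the filter on low values. The 5 others were Tead4, Vgll1, Vgll2, Map4k1 and Tnik. None of the 61 was called in either direction, and 0 had an unadjusted p under 0.05, against 6.33% of all tested genes. Under median scaling 3 of 61 did, all higher (Vgll4, Map4k4 and Csnk1d), against 9.25%, and the groups did not overlap for 1, Vgll4, against 5.08%. Their log2 fold changes ran from -1.02 to 0.71 with a median of -0.11, which lay 0.12 above the median tested gene, and 41 of 61 were negative against 9345 of 13060 tested genes. Under median scaling 21 of the 61 were negative. The 10 genes described here had a median of -0.31, which lay 0.09 below the median tested gene, with 8 negative (7 under median scaling).

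By role, the TEAD factors and their cofactors had the highest median, 0.60 above the median tested gene, over 5 tested genes. That median was the value of Tead2 alone (log2 fold change 0.37, limma adjusted p = 0.917). Tead2 was low, at 1.29, 3.12, 1.39 and 3.34 BPM in the controls and 8.12, 2.23, 0.52 and 5.14 in mutants. None of the 5 genes was called. Tead1, the most abundant of these, had control and mutant means of 28.7 ± 22.3 and 24.5 ± 13.2 BPM (SD, n = 4 each). Tead3 was at 1.94, 3.34, 6.55 and 3.33 BPM in the controls and 10.4, 7.38, 1.27 and 12.9 in mutants, with 3 mutants above and mutant 3487 below all controls (log2 fold change 0.71, limma adjusted p = 0.859). Stk38, an NDR kinase related to the LATS kinases, had the lowest value of the list, with a log2 fold change of -1.02 (14.4 ± 6.81 and 8.05 ± 6.40 BPM, adjusted p = 0.828). Taok1, which can activate MST kinases, was at -0.51, the polarity protein gene Mpp5 (Pals1) at -0.58, Rassf3 at -0.42, the phosphatase catalytic subunit Ppp2ca of the STRIPAK complex at -0.46, and Csnk1d, a casein kinase that helps to mark YAP for breakdown, at 0.32, with adjusted p from 0.857 to 0.906.

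The readout of YAP and TAZ activity was taken from a list of 22 target genes in common use, which includes Lats2 and Amotl2. Of the 20 tested, 0 were called and 2 had an unadjusted p under 0.05, both lower in the mutants, against 6.33% of all tested genes. Under median scaling 4 of 20 did, 2 higher (Myof and Gadd45a) and 2 lower (Igfbp3 and Nuak2), against 9.25%. Igfbp3, an IGF-binding protein, was at 540.0, 402.1, 465.6 and 461.7 BPM in the controls and 236.5, 204.4, 225.8 and 185.4 in mutants. All mutants lay below all controls (log2 fold change -1.13, SE 0.28, unadjusted p = 0.000656, limma adjusted p = 0.150). It was the 1 gene of the 20 whose groups did not overlap, a share close to the 4.29% of all tested genes. Under median scaling the groups of Igfbp3 overlapped (adjusted p = 0.343). Gadd45a was then the 1 gene of the 20 whose groups did not overlap, against 5.08% of all tested genes. Nuak2, an AMPK-related kinase, was at 65.7, 35.0, 158.9 and 112.4 BPM in the controls and 33.8, 28.8, 24.0 and 53.9 in mutants, with 3 of 4 mutants below all controls (log2 fold change -1.23, adjusted p = 0.531).

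The matricellular genes Ctgf and Cyr61, the usual markers of YAP and TAZ activity, did not separate the groups. Ctgf (CCN2) was at 219.0, 202.9, 146.2 and 178.7 BPM in the controls and 258.8, 138.0, 116.1 and 215.6 in mutants (log2 fold change -0.09, adjusted p = 0.966). Cyr61 (CCN1) was at 10.3, 4.83, 17.6 and 19.9 BPM in the controls and 12.3, 5.69, 9.74 and 39.5 in mutants (log2 fold change 0.15, adjusted p = 0.967). The 18 tested targets that are not among the 10 genes had a median 0.20 above the median tested gene, with 9 positive and 9 negative. Ankrd1 and Foxf2 did not pass the filter on low values.

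**Figure D5:**
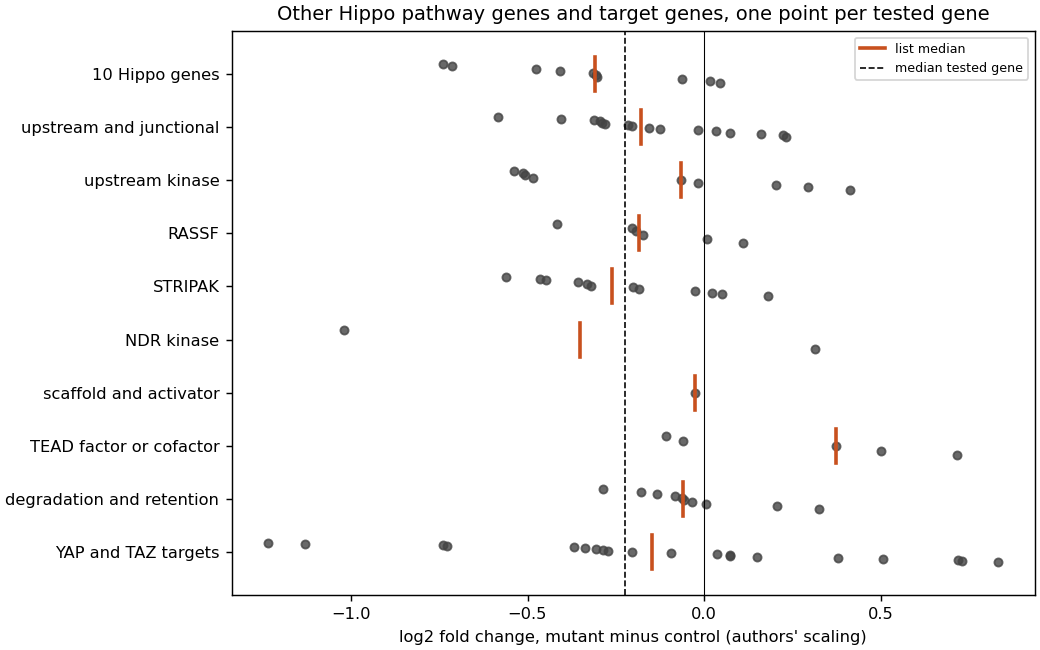
Log2 fold change (mutant minus control, authors' scaling) of each tested gene of the pathway by role, of the 10 genes and of the YAP and TAZ targets, with list medians in orange. The 10 genes have a median of -0.31 beside -0.23 for all tested genes (dashed line), and no gene shown passed the test.

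Target and partner calls appeared when the small RNA share entered the fit as a covariate, which called 3.75% of tested genes and 0 of the 10 genes. The median tested gene lay at 0.25 in this fit. Of the 20 targets 5 were then called. Myof, Axl, Gadd45a and Ccdc80 were higher in the mutants (log2 fold changes 1.99, 1.32, 1.31 and 1.37, adjusted p = 0.00109, 0.0156, 0.0491 and 0.0427), and Igfbp3 was lower (-1.13, adjusted p = 0.00992). Of the 61 partners 3 were called, all higher, namely the kinase genes Map4k4, Mink1 and Csnk1d (0.98, 1.06 and 0.93, adjusted p = 0.0305, 0.0286 and 0.0457). In the same fit 10 of 11 macrophage markers and 5 of 12 fibroblast and pericyte markers were called, all higher. Without the covariate, 0 markers of either list were called under the authors' scaling. Under median scaling 2 macrophage markers and 1 fibroblast and pericyte marker were called, all higher. Myof was at 10.8, 6.89, 26.7 and 16.5 BPM in the controls and 54.5, 15.1, 5.51 and 56.1 in mutants, high in mutants 3382 and 3489 alone. Axl, at 27.2, 19.8, 43.4 and 22.0 BPM in the controls, was likewise highest in those mutants, with 92.8, 22.9, 12.5 and 55.3 over the 4.

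Markers of other cell types differed between the libraries beside these values. The summed level of 12 macrophage markers was 186 to 371 BPM in the controls and 248 to 2230 in the mutants, and that of 12 fibroblast and pericyte markers was 499 to 639 and 368 to 2373. Both sums were highest in mutants 3382 and 3489. Over all tested genes, 9345 of 13060 log2 fold changes were negative under the authors' scaling and 6355 of 13018 under median scaling. The 12 endothelial markers summed to 430 to 832 BPM in the controls and 257 to 532 in the mutants. None of these 12 was called under either scaling. All 12 had log2 fold changes below 0 (11 of 12 with small RNA genes left out of the totals or with quantile normalization, and 9 of 12 with the small RNA covariate or without mutants 3387 and 3487), and their median lay 0.41 under that of all tested genes. The 12 podocyte markers summed to 235 to 788 and 181 to 507 BPM, with 10 of 12 negative under the authors' scaling and 7 of 12 under median scaling, but 10 of 12 positive with the small RNA covariate and 9 of 12 positive without mutants 3387 and 3487. In these last fits the median tested gene itself lay at 0.25 and 0.23. The podocyte median relative to it was 0.10 and -0.02 there, against -0.15 under both scalings. The 10 tubular injury markers summed to 625 to 989 BPM in controls and 705 to 3691 in mutants, highest in mutants 3382 and 3489. Of 8 tested, Havcr1 (KIM-1) was called, higher in the mutants (log2 fold change 3.49, adjusted p = 0.0103), and 5 were called with the covariate. The 8 proximal tubule markers, of the lineage in which Six2Cre acts, summed to 51972 to 61408 BPM in controls and 34065 to 58851 in mutants, with 8 of 8 log2 fold changes negative under both scalings and none called. No marker of these lists was without coverage in all libraries. The part of these cell types in the levels of Yap1, Wwtr1 and the target genes was not tested.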

How the data were processed

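Total RNA from kidney was depleted of ribosomal RNA and sequenced from barcoded Ion Total RNA-seq libraries, per the labels' protocols. The authors deposited 1 table of 23219 genes with 8 libraries, group means, a ratio of means and an unadjusted p-value. The file header names no unit. The lowest value of a library divided 100% of its values (tolerance 1e-06), and 0.0435% of positive values lay from 1 to 19 steps, so the deposited signal was read as sequenced bases per gene plus 1, scaled by the authors to about 280 megabases. No source states this. The number of reads is unknown, and no counting interval is given. Per the submitters' processing notes, bedtools and mm10 were used. The aligner, the annotation and any use of strand are not stated in those sources.

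Values were divided by 280 (BPM). Genes reaching 1 BPM in 4 libraries or more (13060) entered a 2-sided limma fit (version 3.58.1, R 4.3.3) of log2(BPM + 1). The prior variance followed mean level, and p-values were adjusted by Benjamini-Hochberg over all of these genes at a threshold of 0.05. Fold changes on this scale understate changes of low genes. All 10 Hippo genes passed the filter. The fit was tested on simulated data. Coordinates and exon lengths are from GENCODE vM21, and 22885 symbols matched it; 698 were small RNA genes. Promoter sequences are from RefSeq. Genes, lists and tests were chosen with earlier results of these data known. Beside the 10 genes and Mta2, the text names the list member of smallest p per role, the 5 genes nearest to Lats2, list members called under an alternative, and further targets or markers chosen after their values were seen.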

Additional observations from a re-analysis of the deposited data

Results flagged for a closer look

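Dixon's ratio at its 95% critical value (0.829 for 4 libraries) was applied to the 10 genes, Mta2 and the 4 pair ratios, 30 groups of 4 in all, of which chance marks about 1 in 20. A single library far from the other 3 of its group was found 3 times. Mob1b measured 39.2 BPM in mutant 3489, against 14.3 to 17.0 in the other mutants. The log2 ratio of Lats2 to Lats1 was 0.0201 in control 3486, against -1.47 to -1.27 in the other controls. The same ratio was -1.34 in mutant 3489, against -0.97 to -0.92 in the other mutants.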

How the results depend on the processing

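No paired analysis was possible because the control and mutant libraries share no replicate number. Of 18 alternatives, 0 called any of the 10 genes, and the cause of the changes below was not tested. The count of called genes over the whole table (14) was 44 without the 20 most abundant genes in the totals, 55 without small RNA genes in them, 60 with median scaling (53 higher and 7 lower, against 10 and 4), 69 with quantile normalization, 73 with array weights, 490 with small RNA share as covariate, 51 without mutants 3387 and 3487, 9 with a filter of 5 BPM, 9 with a pseudocount of 0.1 and 0 with no filter. Leaving out single libraries gave 5 (mutant 3387 or 3489) to 40 (mutant 3487), with 8 without control 3401 or 3587 and 37 without control 3486. The partner count was 3 with the covariate, and the target count 5 with the covariate and 1, Igfbp3, with array weights. Of 180 values of the 10 genes, 154 kept their sign, and Stk3 and Mob1b kept it in all 18 alternatives. With the covariate the log2 fold changes of Amotl2, Lats1, Lats2, Wwtr1, Nf2 and Mta2 turned to 0.20, 0.42, 0.14, 0.15, 0.59 and 0.065, and without mutants 3387 and 3487 to 0.0125, 0.30, 0.19, 0.16, 0.44 and 0.0268, with Sav1 at 0.0697. The median tested gene turned as well, from -0.23 to 0.25 and 0.23. Amotl2, Lats2, Wwtr1 and Mta2 lay below it in both fits, and Lats1 and Nf2 above it. The median of the 10 genes relative to it was -0.08 and -0.05, against -0.09 in the main fit. Nf2 was 0.0926 without the most abundant genes in the totals, 0.21 without small RNA genes in them, 0.20 with median scaling and 0.19 with quantile normalization, and Yap1 was -0.0596 with array weights. Without single libraries Nf2 ran from -0.41 to 0.23, Stk4 from -0.29 to 0.34, Yap1 from -0.26 to 0.24, and the Lats2 to Lats1 ratio from -0.15 to 0.35, with 0.10 without mutant 3489.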
